A study of Drosophila melanogaster with 9 samples.

Results

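Aminoacyl-tRNA synthetases attach each amino acid to its transfer RNA (tRNA) and so supply the ribosome with charged tRNA. Nuclear genes encode a set of enzymes for the cytosol and a set for the mitochondria. Some genes, GlyRS and LysRS among them, serve both compartments. The enzymes fall into class I and class II, which have unrelated catalytic folds. In animal cells several cytosolic enzymes sit in a multisynthetase complex held together by the AIMP scaffold proteins. All proliferating cells use these genes, and an insect cell line such as S2R+ expresses both sets.

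The genes were chosen by name. A FlyBase symbol made of an amino acid's 3 letters and RS, with or without the mitochondrial ending -m, or the symbol GluProRS, made a gene a member. The rule matched 33 symbols. Of these, 31 had a row among the 17559 genes of the count files, 17 cytosolic and 14 mitochondrial. Cytosolic here means a symbol without -m, so that set may hold genes of both compartments, as it does GlyRS and LysRS. No -m symbol was matched for glutamine, glycine, histidine, lysine or threonine. LeuRS and PheRS-m had no row under their current identifiers and were not analysed here. The 31 genes all passed the filter on low counts, with 281 to 32234 reads per gene and library. They lie on 5 chromosome arms, with 10 on 3L, 7 on 2R, 6 on 3R, 5 on 2L and 3 on X (annotation BDGP6.54, the assembly of the build dm6 that the files use).

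The libraries came from S2R+ cells, a Drosophila melanogaster line of embryonic origin with haemocyte-like properties, in 3 groups of 3. All groups carried a transgene driven through Gal4-UAS with an actin promoter. It encoded nuclear GFP in the control group, the wild-type Hox transcription factor Ultrabithorax in the Ubx-WT group, and Ubx with the homeodomain change N51A in the Ubx-N51A group. The protocol gives Ubx a myc tag and the sample characteristics give it a GFP tag, and the files do not settle which. The submitters made 4 replicates per group and kept 3 by a principal component analysis, and the effect of that choice on the spread was not tested. Whether replicates were separate cultures is stated only as independent, so p-values measure the spread between these libraries. File names carry differing words on sorting, so any sorting of cells cannot be told apart from the expressed protein.

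Reads assigned to genes numbered 30967554 to 66828787 per library. Ubx had 8 to 89 reads per GFP library, 69408 to 102681 per Ubx-WT library and 51719 to 145254 per Ubx-N51A library. These counts set GFP apart from the Ubx groups, as labelled. Counts per gene cannot tell wild-type Ubx from Ubx-N51A, so the labels that part those groups were not checked. Of 12 haemocyte markers 10 exceeded 1 CPM in some library, with summed levels of 1410 to 1541 CPM for GFP, 1423 to 1486 for Ubx-WT and 1457 to 1492 for Ubx-N51A, while the phagocytosis receptor gene NimC1 stayed at 0 to 0.0875 CPM. None of the 4 fat body markers reached 1 CPM, and of 5 neuronal markers elav alone did. Of 5 muscle markers 3 exceeded 1 CPM. Their list summed to 575 to 594 CPM for GFP, 580 to 621 for Ubx-WT and 570 to 618 for Ubx-N51A, mostly from Tm1. The 2 germ line markers with a row exceeded 1 CPM. They summed to 246 to 249 CPM for GFP, 240 to 250 for Ubx-WT and 247 to 252 for Ubx-N51A, mostly from aub. Some marker sums differed between the groups. Over 4 glial genes, 3 of them over 1 CPM, the sum was 275 to 300 CPM for GFP, 253 to 270 for Ubx-WT and 256 to 268 for Ubx-N51A, with the defining gene repo at 0.0269 to 0.156 CPM. Of 5 lamellocyte or crystal cell genes 4 exceeded 1 CPM. The sum over all 5 was 914 to 923 CPM for GFP, 833 to 881 for Ubx-WT and 831 to 846 for Ubx-N51A. Most of that sum was msn, at means of 814 CPM for GFP, 757 for Ubx-WT and 743 for Ubx-N51A. PPO2 alone had higher means with Ubx, and lz stayed at 0 to 0.153 CPM. For S2R+ among S2 lines 3 genes were listed. Their sum was 20.2 to 21.8 CPM for GFP, 32.4 to 36.5 for Ubx-WT and 25.9 to 27.6 for Ubx-N51A. The means of fz were 9.04, 14.1 and 10.6 CPM in that order, and those of fz2 were 9.09, 17.8 and 13.1. DAAM went the other way, at 3.06, 2.69 and 2.93 CPM. Transcripts from mitochondrial DNA made up 1.92% to 3.43% of reads for GFP, 2.77% to 4.91% for Ubx-WT and 4.11% to 5.87% for Ubx-N51A. The part of the markers in the results below was not tested. In bulk RNA fewer cells of a type and less RNA per cell cannot be told apart.

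Levels were compared between genes as CPM (read counts relative to library size, with TMM factors) per kb of exon. In the GFP libraries every one of the 17 cytosolic genes stood above all 14 mitochondrial genes. The highest were ThrRS at 177 ± 1.43, AlaRS at 164 ± 1.2 and SerRS at 156 ± 5.82 CPM per kb (mean ± SD, n = 3). Within the cytosolic set GlyRS (76.8 ± 2.09), IleRS (75.9 ± 2.2) and GluProRS (75.5 ± 1.3 CPM per kb) did not differ beyond their spread. The lowest cytosolic gene was AspRS at 37.6 ± 1.48 CPM per kb, and the highest mitochondrial gene was AspRS-m at 28.4 ± 1.54 CPM per kb. The lowest of all were IleRS-m at 4.95 ± 0.376, MetRS-m at 3.75 ± 0.357 and ValRS-m at 3.25 ± 0.155 CPM per kb. With Ubx-WT the cytosolic and mitochondrial levels still did not interleave, since AspRS stood at 31.9 ± 1.21 and AspRS-m at 28.1 ± 1.71 CPM per kb, and with Ubx-N51A they stood at 33.1 ± 2.21 and 26.8 ± 0.119. AspRS shares 73.5% of its exon bases with other annotated genes, including Nmda1 on the opposite strand, so its level depends on how such reads were counted. In all, 16 of the 31 genes share exon bases with another gene, and 5 share over 10%.

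**Figure D1:**
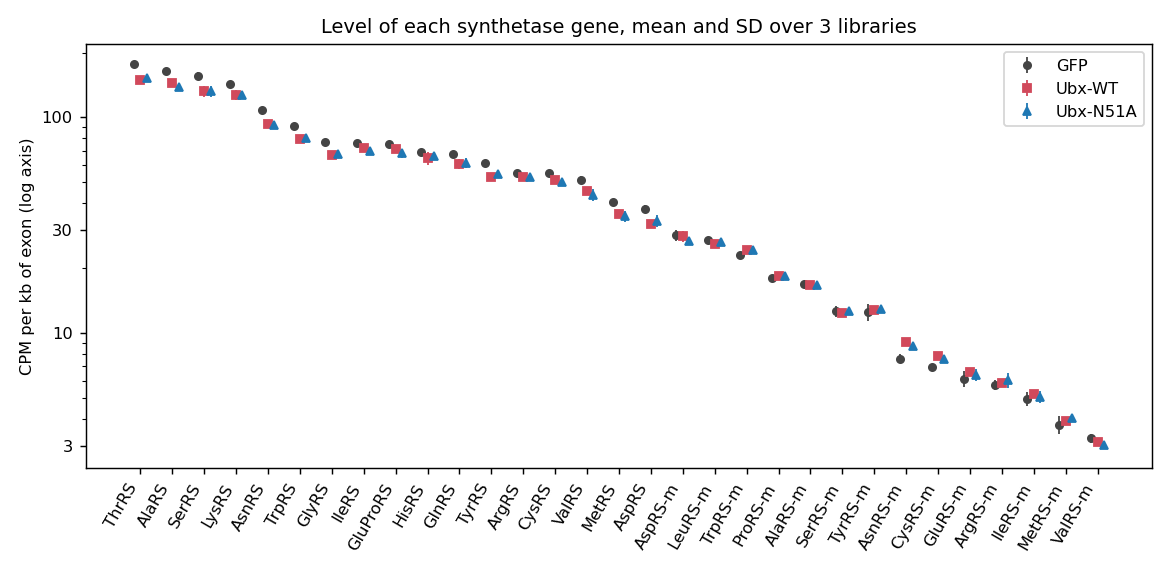
Level of each synthetase gene in CPM per kb of exon on a log axis, as mean and SD over 3 libraries for GFP (circles), Ubx-WT (squares) and Ubx-N51A (triangles), ordered by the GFP mean. The 17 cytosolic genes lie to the left, from 177 down to 37.6 CPM per kb with GFP, and the 14 mitochondrial genes to the right, from 28.4 down to 3.25.

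Most cytosolic synthetase transcripts fell in both Ubx groups, and no mitochondrial one was called lower in either. With Ubx-WT against GFP, 11 of 17 cytosolic genes fell and none rose, against 7.83% of all 9207 genes tested that were called lower and 8.72% called higher. Of the 14 mitochondrial genes AsnRS-m rose and none fell, so 12 of 31 synthetase genes changed, against 16.6% of all genes. A gene was called at an adjusted p under 0.05 (edgeR quasi-likelihood, Benjamini-Hochberg over all genes). With Ubx-N51A against GFP, 11 of 17 cytosolic genes fell and none rose, against 4.71% of all genes called lower, 3.38% called higher and 8.09% called in either direction. For the mitochondrial genes edgeR called 0 of 14 with Ubx-N51A, 1 had an unadjusted p under 0.05, and DESeq2 called 0. These comparisons share the GFP libraries, so they are not independent. AlaRS, AsnRS, AspRS, GlyRS, LysRS, MetRS, SerRS, ThrRS, TrpRS, TyrRS and ValRS were called lower in each.

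The median log2 fold change of the cytosolic genes was -0.19 with Ubx-WT, with single genes from -0.24 to -0.07, and -0.18 with Ubx-N51A, from -0.24 to -0.07. The mitochondrial medians were 0.03 and 0.04, and the medians of all genes tested were 0.00 and 0.01. All 17 cytosolic values lay below 0 in each comparison, as did 5 and 4 of the 14 mitochondrial values, and 49.8% and 45.8% of all genes. Cytosolic synthetases are abundant, so abundant genes are a closer background. Among the 3650 genes of at least 50 CPM with GFP, a limit set after the values were seen, 13.9% were called lower with Ubx-WT and 8.11% with Ubx-N51A, and the medians were -0.04 and -0.02. Libraries did not overlap, with the Ubx group below GFP, for 15 of 17 cytosolic genes with Ubx-WT (17.8% of all genes) and for 16 with Ubx-N51A (15% of all genes).

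**Figure D2:**
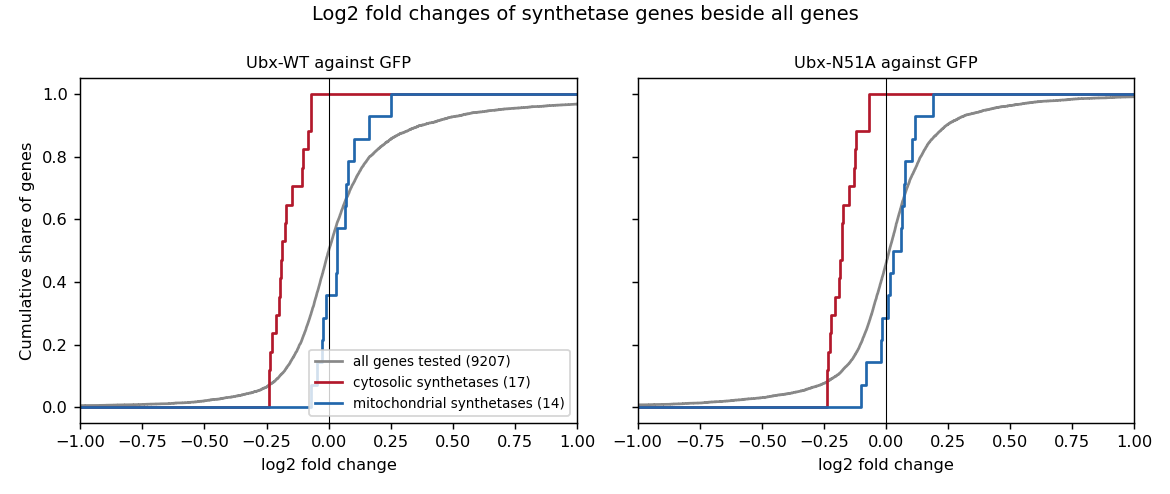
Cumulative share of genes by log2 fold change for Ubx-WT (left) and Ubx-N51A (right) against GFP, for all 9207 genes tested (grey), 17 cytosolic (red) and 14 mitochondrial (blue) synthetase genes. The axis stops at 1 in each direction. All cytosolic genes lie below 0, with medians of -0.19 and -0.18, while the mitochondrial medians are 0.03 and 0.04.

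The most abundant cytosolic transcripts showed the difference in every library. AlaRS (FBgn0027094; chromosome 2L, 8378262 to 8381764, minus strand), which charges alanine, stood at 545, 537 and 541 CPM in GFP cells, 484, 467 and 470 CPM in Ubx-WT cells and 444, 454 and 478 CPM in Ubx-N51A cells. All Ubx libraries lay below all GFP libraries. AlaRS differed from GFP on the log2 scale by -0.19 (SE 0.040; edgeR adjusted p = 0.00585) for Ubx-WT, and by -0.24 (SE 0.041; edgeR adjusted p = 0.00362) for Ubx-N51A. ThrRS (FBgn0027081; chromosome 2L, 12103751 to 12107170, plus strand), the threonine enzyme, stood at 516, 508 and 511 CPM in GFP cells, 441, 418 and 440 CPM in Ubx-WT cells and 433, 438 and 460 CPM in Ubx-N51A cells. Again neither Ubx group overlapped with GFP, and the Ubx groups overlapped with each other. The log2 fold change of ThrRS came to -0.24 (SE 0.041; edgeR adjusted p = 0.00139) for Ubx-WT, and to -0.20 (SE 0.041; edgeR adjusted p = 0.00853) for Ubx-N51A. Both genes kept their calls without any single library. In percent, AlaRS was 12.5% lower with Ubx-WT and 15.2% lower with Ubx-N51A, and ThrRS 15.3% and 13.2% lower.

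Other class II enzymes of the cytosol gave values of the same size. SerRS (FBgn0031497; chromosome 2L, 3035493 to 3037403, minus strand), a gene of 1 merged exon that encodes the serine enzyme, stood at 307, 301 and 286 CPM in GFP cells, 268, 237 and 252 CPM in Ubx-WT cells and 241, 249 and 269 CPM in Ubx-N51A cells. For SerRS the Ubx-WT log2 fold change was -0.24 (SE 0.054; edgeR adjusted p = 0.00822), and the Ubx-N51A value was -0.24 (SE 0.054; edgeR adjusted p = 0.0183). Its libraries did not overlap with GFP in either comparison, but the Ubx-N51A call was lost without GFP replicate 1 (0.0757), GFP replicate 2 (0.0881), Ubx-N51A replicate 1 (0.0763) or Ubx-N51A replicate 2 (0.0777), the adjusted p then given in brackets. AsnRS (FBgn0086443; chromosome 2L, 19129469 to 19131954, minus strand), the asparagine enzyme, stood at 264, 258 and 250 CPM in GFP cells, 230, 218 and 219 CPM in Ubx-WT cells and 209, 219 and 227 CPM in Ubx-N51A cells. Against GFP, the log2 fold change of AsnRS was -0.21 (SE 0.042; edgeR adjusted p = 0.00407) for Ubx-WT and -0.24 (SE 0.042; edgeR adjusted p = 0.00483) for Ubx-N51A. It was lower in all Ubx libraries and kept both calls without any single library.

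GlyRS and LysRS, which charge glycine and lysine in both compartments, were among those that fell. GlyRS (FBgn0027088; chromosome 3L, 15095142 to 15097686, plus strand) stood at 195, 201 and 190 CPM in GFP cells, 174, 168 and 169 CPM in Ubx-WT cells and 169, 169 and 177 CPM in Ubx-N51A cells. GlyRS differed from GFP on the log2 scale by -0.20 (SE 0.037; edgeR adjusted p = 0.00281) for Ubx-WT, and by -0.19 (SE 0.037; edgeR adjusted p = 0.00843) for Ubx-N51A. The groups with Ubx lay below GFP in every library, and the Ubx-N51A call was lost without GFP replicate 2 (0.0582). LysRS (FBgn0027084; chromosome X, 9606363 to 9608884, minus strand) stood at 327, 334 and 312 CPM in GFP cells, 305, 277 and 279 CPM in Ubx-WT cells and 282, 284 and 295 CPM in Ubx-N51A cells. The log2 fold change of LysRS came to -0.18 (SE 0.046; edgeR adjusted p = 0.0184) for Ubx-WT, and to -0.18 (SE 0.046; edgeR adjusted p = 0.0321) for Ubx-N51A. No Ubx library reached the lowest GFP library. With Ubx-WT LysRS was lost without GFP replicate 1 (0.0649), GFP replicate 2 (0.0945), Ubx-WT replicate 2 (0.0682) or Ubx-WT replicate 3 (0.0894), and with Ubx-N51A without GFP replicate 1 (0.103), GFP replicate 2 (0.158), Ubx-WT replicate 3 (0.0534), Ubx-N51A replicate 1 (0.103) or Ubx-N51A replicate 2 (0.112).

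AspRS, the aspartate enzyme, was the least abundant cytosolic member per kb. AspRS (FBgn0002069; chromosome 2R, 12877004 to 12883168, plus strand) stood at 87.9, 86.4 and 81.5 CPM in GFP cells, 71.2, 70.4 and 75.5 CPM in Ubx-WT cells and 69.4, 79.2 and 76.1 CPM in Ubx-N51A cells. For AspRS the Ubx-WT log2 fold change was -0.23 (SE 0.052; edgeR adjusted p = 0.00758), and the Ubx-N51A value was -0.18 (SE 0.052; edgeR adjusted p = 0.0469). The Ubx libraries lay below the GFP libraries in each comparison. The Ubx-N51A call was lost without GFP replicate 1 (0.161), GFP replicate 2 (0.173), GFP replicate 3 (0.0516), Ubx-WT replicate 3 (0.063), Ubx-N51A replicate 1 (0.161) or Ubx-N51A replicate 3 (0.0797), with the exon-length offset (0.0516) and in a fit of the 6 libraries compared (0.0538). The remaining cytosolic class II gene, HisRS for histidine, stood at 200, 202 and 194 CPM in GFP cells, 200, 174 and 182 CPM in Ubx-WT cells and 191, 181 and 195 CPM in Ubx-N51A cells. In each Ubx group 1 library lay within the GFP range, and the log2 fold changes of -0.10 and -0.07 did not pass the test (edgeR adjusted p = 0.189 and 0.444). Of the 8 cytosolic class II genes, 7 were called lower in each comparison.

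Of the 8 cytosolic class I genes, 4 were called lower in each comparison. TyrRS (FBgn0027080; chromosome 3L, 16417349 to 16419302, minus strand), the tyrosine enzyme, stood at 111, 106 and 111 CPM in GFP cells, 96, 90.8 and 93.3 CPM in Ubx-WT cells and 95.2, 96.1 and 98.7 CPM in Ubx-N51A cells. Against GFP, the log2 fold change of TyrRS was -0.23 (SE 0.037; edgeR adjusted p = 0.00115) for Ubx-WT and -0.18 (SE 0.038; edgeR adjusted p = 0.0129) for Ubx-N51A. The Ubx-N51A call was lost without GFP replicate 1 (0.0612), GFP replicate 3 (0.0546) or Ubx-N51A replicate 2 (0.0604). TrpRS (FBgn0010803; chromosome 3R, 9265027 to 9266904, minus strand), the tryptophan enzyme, stood at 155, 151 and 155 CPM in GFP cells, 133, 131 and 137 CPM in Ubx-WT cells and 132, 137 and 139 CPM in Ubx-N51A cells. TrpRS differed from GFP on the log2 scale by -0.20 (SE 0.036; edgeR adjusted p = 0.00202) for Ubx-WT, and by -0.17 (SE 0.036; edgeR adjusted p = 0.0104) for Ubx-N51A. Both genes were lower in every Ubx library, and the Ubx-N51A call of TrpRS was lost without GFP replicate 1 (0.0501). TyrRS had the lowest adjusted p of all synthetase genes with Ubx-WT.

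MetRS (FBgn0034401; chromosome 2R, 18846858 to 18850599, minus strand), which charges methionine, stood at 135, 137 and 143 CPM in GFP cells, 120, 123 and 121 CPM in Ubx-WT cells and 111, 121 and 124 CPM in Ubx-N51A cells. The log2 fold change of MetRS came to -0.19 (SE 0.044; edgeR adjusted p = 0.00994) for Ubx-WT, and to -0.22 (SE 0.044; edgeR adjusted p = 0.00871) for Ubx-N51A. It lay below GFP in all Ubx libraries and kept both calls without any single library. ValRS (FBgn0027079; chromosome 2R, 13198850 to 13202709, plus strand), the valine enzyme, stood at 172, 183 and 170 CPM in GFP cells, 161, 152 and 154 CPM in Ubx-WT cells and 138, 152 and 158 CPM in Ubx-N51A cells. For ValRS the Ubx-WT log2 fold change was -0.17 (SE 0.050; edgeR adjusted p = 0.0332), and the Ubx-N51A value was -0.23 (SE 0.050; edgeR adjusted p = 0.0157). The Ubx libraries lay below all GFP libraries. The Ubx-WT call was lost without GFP replicate 1 (0.0682), GFP replicate 2 (0.153), Ubx-WT replicate 2 (0.098) or Ubx-WT replicate 3 (0.108), and the Ubx-N51A call without GFP replicate 2 (0.0954).

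The other class I genes and the bifunctional GluProRS did not pass the test. GluProRS (FBgn0005674), which joins the glutamate and proline enzymes in 1 protein, stood at 408, 420 and 408 CPM in GFP cells, 384, 398 and 385 CPM in Ubx-WT cells and 350, 378 and 387 CPM in Ubx-N51A cells. Its groups did not overlap with GFP, at log2 fold changes of -0.08 with Ubx-WT (edgeR adjusted p = 0.233) and -0.15 with Ubx-N51A (edgeR adjusted p = 0.0577). IleRS, for isoleucine, stood at 287, 296 and 304 CPM in GFP cells, 271, 295 and 281 CPM in Ubx-WT cells and 273, 267 and 277 CPM in Ubx-N51A cells, and overlapped between Ubx-WT and GFP. Its log2 fold changes were -0.07 with Ubx-WT (edgeR adjusted p = 0.289) and -0.12 with Ubx-N51A (edgeR adjusted p = 0.0986). For GlnRS, the glutamine enzyme, they were -0.15 with Ubx-WT (edgeR adjusted p = 0.0553) and -0.13 with Ubx-N51A (edgeR adjusted p = 0.128). For CysRS, the cysteine enzyme, they were -0.11 with Ubx-WT (edgeR adjusted p = 0.0609) and -0.12 with Ubx-N51A (edgeR adjusted p = 0.0534). ArgRS, for arginine, gave -0.07 with Ubx-WT (edgeR adjusted p = 0.226) and -0.07 with Ubx-N51A (edgeR adjusted p = 0.281). The Ubx libraries of these 3 genes lay below those of GFP in each comparison. For ArgRS the gap closed to a tie at the printed precision, since the lowest GFP library and the highest library of each Ubx group stood at 116 CPM. In percent, the fitted log2 fold changes with Ubx-WT were 7.1% lower for CysRS, 9.69% for GlnRS and 4.72% for ArgRS.

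A split by the multisynthetase complex, whose enzymes are known from mammals, was made after the values were seen and was not tested. Of 7 measured complex enzymes, namely GluProRS, IleRS, MetRS, GlnRS, LysRS, ArgRS and AspRS, 3 were called lower in each comparison, with median log2 fold changes of -0.15 and -0.15. Of the 10 cytosolic enzymes outside the complex 8 were called lower in each, with medians of -0.20 and -0.20. Over all genes 7.83% and 4.71% were called lower. DESeq2 called 4 and 5 of the 7 lower, and 9 of the 10 in each, so these counts depend on the test. Ubx libraries lay below all GFP libraries for 6 and 7 of the 7 and for 9 of the 10 in each, against 17.8% and 15% of all genes.

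**Figure D3:**
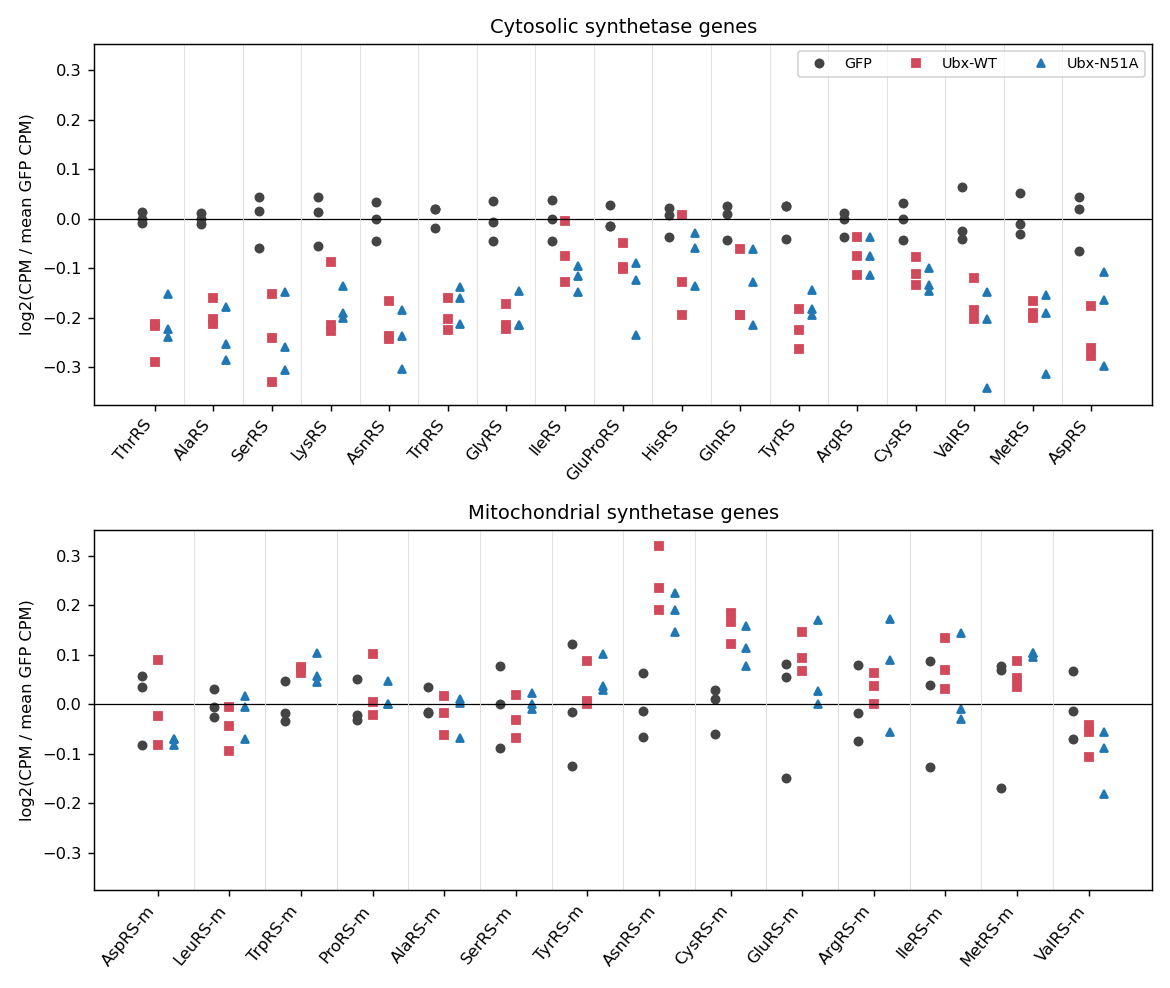
Level of each synthetase gene in every library as log2 of its CPM over the mean GFP CPM, for cytosolic genes (top) and mitochondrial genes (bottom). Points are single libraries of GFP (circles), Ubx-WT (squares) and Ubx-N51A (triangles). Among the cytosolic genes Ubx libraries overlap with GFP libraries for HisRS in both groups and for IleRS with Ubx-WT, and among the mitochondrial genes AsnRS-m and CysRS-m lie above GFP in all Ubx libraries.

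Among the mitochondrial genes AsnRS-m had the largest positive difference. AsnRS-m (FBgn0034177; chromosome 2R, 17001994 to 17003599, plus strand), which charges asparagine in mitochondria, stood at 11.8, 10.8 and 11.2 CPM in GFP cells, 12.9, 14.1 and 13.3 CPM in Ubx-WT cells and 13.2, 12.9 and 12.5 CPM in Ubx-N51A cells. Against GFP, the log2 fold change of AsnRS-m was 0.25 (SE 0.062; edgeR adjusted p = 0.0145) for Ubx-WT and 0.19 (SE 0.064; edgeR adjusted p = 0.092) for Ubx-N51A. It was higher than GFP in every Ubx library, a rise with Ubx-WT that was lost without GFP replicate 2 (0.0682) or Ubx-WT replicate 2 (0.0656). Its neighbour in size was CysRS-m, the mitochondrial cysteine enzyme, at 15, 14.1 and 14.8 CPM in GFP cells, 16.7, 16 and 16.5 CPM in Ubx-WT cells and 16.4, 15.5 and 15.9 CPM in Ubx-N51A cells. All Ubx libraries exceeded all GFP libraries, but the log2 fold changes of 0.16 with Ubx-WT (edgeR adjusted p = 0.0572) and 0.12 with Ubx-N51A (edgeR adjusted p = 0.223) did not pass. Libraries did not overlap, with the Ubx group above GFP, for 3 of 14 mitochondrial genes with Ubx-WT (17.6% of all genes) and for 3 with Ubx-N51A (14.4% of all genes).

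The 12 other mitochondrial genes gave log2 fold changes from -0.07 (ValRS-m) to 0.10 (GluRS-m) with Ubx-WT and from -0.10 (ValRS-m) to 0.11 (MetRS-m) with Ubx-N51A. The 3 with the lowest levels per kb of exon are given in CPM. IleRS-m, for isoleucine, stood at 13.1, 14.7 and 15.2 CPM in GFP cells, 14.6, 15 and 15.7 CPM in Ubx-WT cells and 15.8, 14.2 and 14 CPM in Ubx-N51A cells. MetRS-m, for methionine, stood at 17, 17.1 and 14.4 CPM in GFP cells, 16.8, 16.6 and 17.2 CPM in Ubx-WT cells and 17.4, 17.3 and 17.4 CPM in Ubx-N51A cells, with 1 low GFP library. ValRS-m, for valine, stood at 10.5, 10.1 and 11.1 CPM in GFP cells, 10.3, 10.2 and 9.85 CPM in Ubx-WT cells and 9.35, 9.97 and 10.2 CPM in Ubx-N51A cells. The groups overlapped in these genes, apart from MetRS-m with Ubx-N51A, where the lowest Ubx-N51A library exceeded the highest GFP library. Among the higher ones, AspRS-m stood at 118, 130 and 128 CPM in GFP cells, 118, 133 and 123 CPM in Ubx-WT cells and 118, 119 and 119 CPM in Ubx-N51A cells, LeuRS-m at 80.9, 83 and 79.8 CPM in GFP cells, 76.1, 80.9 and 78.8 CPM in Ubx-WT cells and 80.9, 77.3 and 82.2 CPM in Ubx-N51A cells and AlaRS-m at 54, 54.1 and 56 CPM in GFP cells, 55.3, 52.4 and 54 CPM in Ubx-WT cells and 52.2, 54.8 and 55.1 CPM in Ubx-N51A cells. These overlapped as well. TrpRS-m stood at 59.2, 56.6 and 56 CPM in GFP cells, 60.2, 60.4 and 59.9 CPM in Ubx-WT cells and 59.6, 59.1 and 61.6 CPM in Ubx-N51A cells, so its Ubx-WT libraries lay above GFP by a log2 fold change of 0.07 that did not pass (edgeR adjusted p = 0.243).

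ProRS-m, SerRS-m, TyrRS-m, GluRS-m and ArgRS-m, which charge proline, serine, tyrosine, glutamate and arginine, had mean levels of 27.4, 32.3, 19.3, 10.4 and 15.8 CPM with GFP, 28, 31.7, 19.7, 11.2 and 16.2 CPM with Ubx-WT and 27.7, 32.4, 20.1, 10.9 and 16.6 CPM with Ubx-N51A. In each of them the ranges of the groups overlapped. The mitochondrial genes have fewer reads, and their SE ran from 0.039 to 0.075 with Ubx-WT against 0.036 to 0.054 for the cytosolic genes. The 95% interval of the log2 fold change lay wholly above the cytosolic median for 13 of 14 mitochondrial genes with Ubx-WT, all but ValRS-m. With Ubx-N51A it did so for 12 of 14, all but AspRS-m and ValRS-m. The cytosolic median comes from the same libraries and was taken as fixed. The share of all genes with such intervals was not computed, so whether these counts are particular to mitochondrial synthetases cannot be told.

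**Figure D4:**
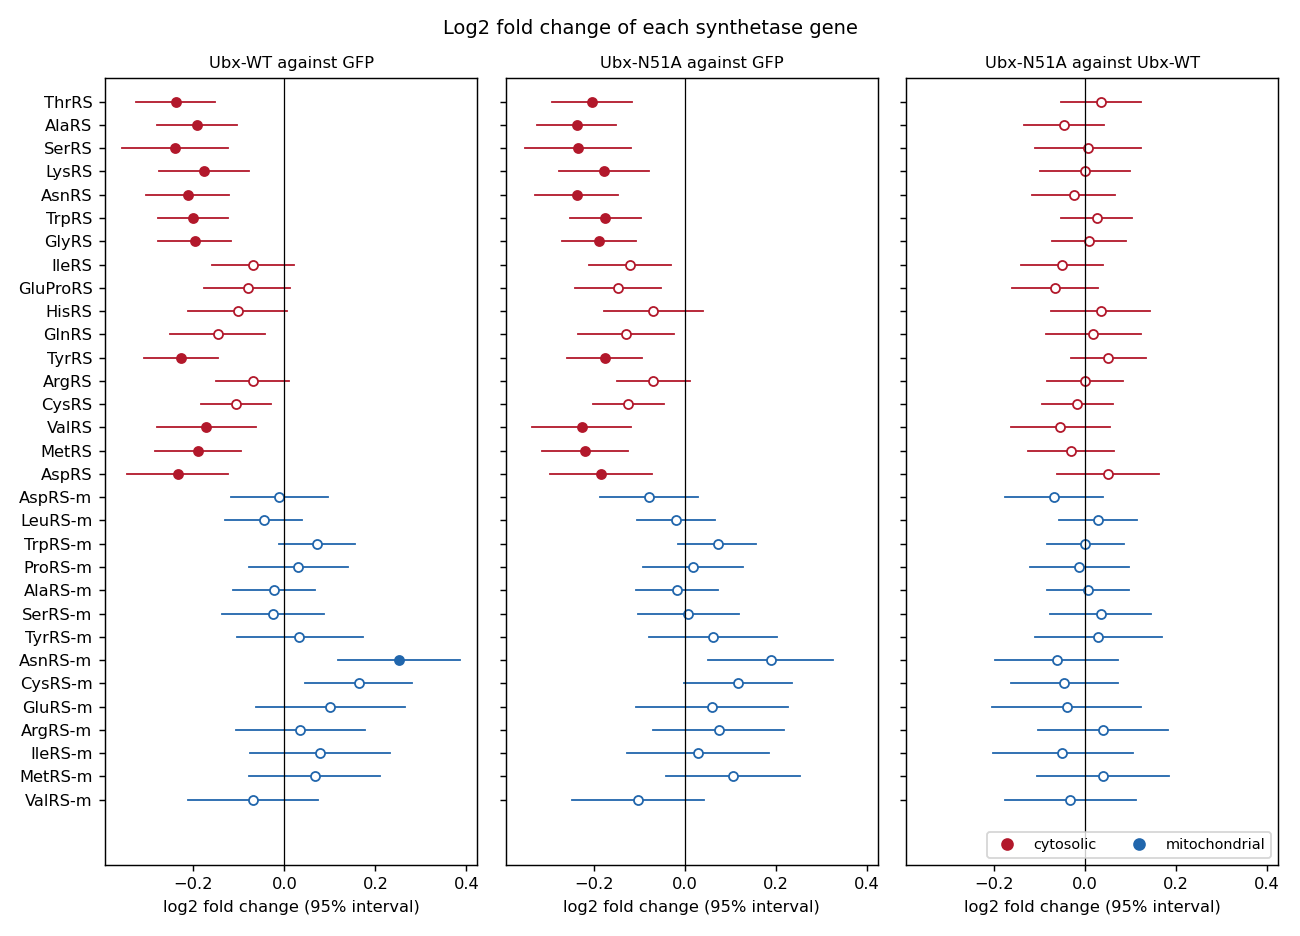
Log2 fold change of each synthetase gene with its 95% interval for Ubx-WT against GFP, Ubx-N51A against GFP and Ubx-N51A against Ubx-WT, cytosolic genes in red and mitochondrial genes in blue, filled where called. In the first and second panels 11 cytosolic genes are filled to the left of 0 and AsnRS-m is filled to the right with Ubx-WT. No gene is filled in the panel of the Ubx proteins, where all intervals hold 0.

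The direct comparison asks whether the homeodomain change altered these transcripts. Between Ubx-N51A and Ubx-WT edgeR called 0 of 31 synthetase genes, 0 had an unadjusted p under 0.05, and DESeq2 called 0, while 5.14% of all genes tested were called, 3.91% lower and 1.23% higher. The log2 fold changes ran from -0.07 (AspRS-m) to 0.05 (TyrRS), with a median of 0.00 over the synthetase genes and 0.01 over all genes tested. All 31 intervals held 0. The 95% intervals of the cytosolic genes lay between -0.16 and 0.16, and those of all members between -0.20 and 0.18. Each interval holds for its own gene and was not adjusted for the 31 genes, so together they do not bound every difference at 95%. These intervals do not show that the proteins act alike.

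The ratio of cytosolic to mitochondrial transcripts within a library does not depend on how libraries are scaled. The cytosolic sum includes genes that serve both compartments, such as GlyRS and LysRS. Summed over the 17 cytosolic genes, the level in CPM, not corrected for exon length, was 4115 ± 45.1 with GFP, 3659 ± 69.5 with Ubx-WT and 3628 ± 121 with Ubx-N51A (mean ± SD, n = 3). Summed over the 14 mitochondrial genes it was 491 ± 2.89, 496 ± 9.17 and 491 ± 4.36 CPM. The ratio of these sums was 8.45, 8.4 and 8.3 in GFP cells, 7.66, 7.12 and 7.37 in Ubx-WT cells, and 7.19, 7.39 and 7.57 in Ubx-N51A cells. All Ubx libraries lay below all GFP libraries, and the Ubx groups overlapped. No p is given for these sums, because the genes were chosen with earlier results known.

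**Figure D5:**
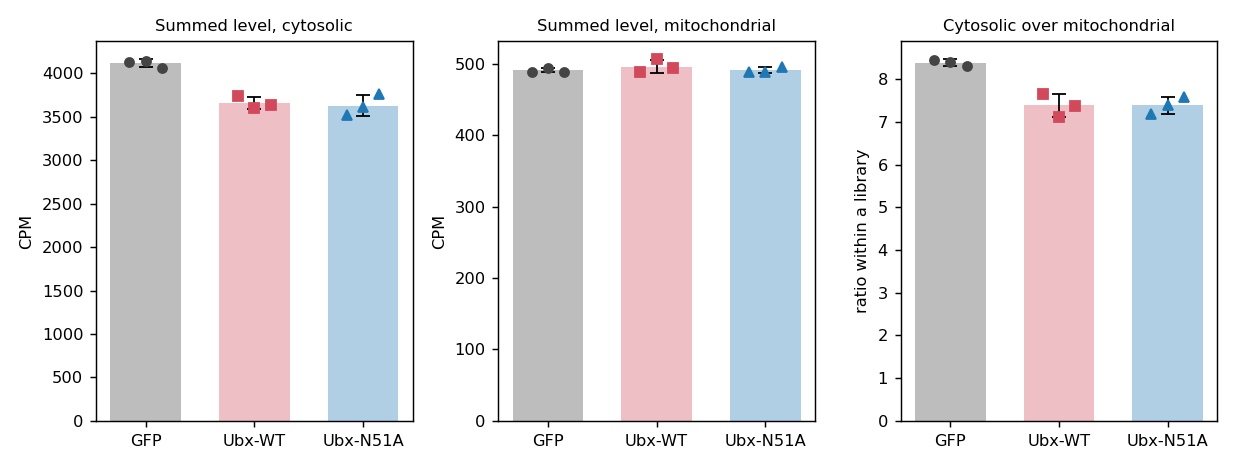
Summed CPM of the cytosolic genes, summed CPM of the mitochondrial genes, and their ratio within each library. Points are libraries, bars are means and error bars are SD over 3 libraries. The mean cytosolic sum is 4115 CPM with GFP and 3659 and 3628 CPM in the Ubx groups. The group means of the mitochondrial sum lie between 491 and 496 CPM, with single libraries from 488 to 506.

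The ratio of the cytosolic to the mitochondrial gene, each in CPM per kb of exon, can also be read for each of 11 amino acids with both genes. Its mean was below that of GFP in all 11 with Ubx-WT and in all 11 with Ubx-N51A, where sharing the GFP libraries ties the counts together. For asparagine AsnRS exceeded AsnRS-m per kb 13.9, 14.9 and 14 times in GFP cells, 11.1, 9.63 and 10.3 times in Ubx-WT cells, and 9.87, 10.6 and 11.3 times in Ubx-N51A cells. For alanine the per-kb ratio was 9.91, 9.76 and 9.5 in GFP cells, 8.59, 8.75 and 8.56 in Ubx-WT cells, and 8.35, 8.13 and 8.53 in Ubx-N51A cells. For tryptophan it was 3.85, 3.93 and 4.06, then 3.25, 3.2 and 3.36, then 3.25, 3.41 and 3.32 in the same order. In these 3 pairs no Ubx library reached the GFP range. For arginine the per-kb ratio was 9.85, 10.3 and 8.93 in GFP cells, 9.23, 9.19 and 8.56 in Ubx-WT cells, and 9.77, 7.96 and 8.67 in Ubx-N51A cells, and the groups overlapped. Valine overlapped as well, at 14.5 to 17.2 in GFP cells, 14.1 to 14.9 in Ubx-WT cells and 14.1 to 14.8 in Ubx-N51A cells. Aspartate overlapped between GFP (1.24 to 1.46) and Ubx-N51A (1.15 to 1.3).

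The subunits and partners that the naming rule leaves out were taken from a separate list of 5 genes. The list holds both subunits of the cytosolic phenylalanine enzyme, alpha-PheRS and beta-PheRS, and the scaffold genes AIMP1, AIMP2 and AIMP3. With Ubx-WT 2 of 5 fell, alpha-PheRS and AIMP2, and none rose, against 7.83% of all genes called lower, at a median log2 fold change of -0.16. With Ubx-N51A edgeR called 0 of 5, 3 had an unadjusted p under 0.05, DESeq2 called 1, and the median was -0.12. Over all 9207 genes tested edgeR called 8.09% with Ubx-N51A, and 2157 had an unadjusted p under 0.05. alpha-PheRS stood at 73.2, 73.2 and 68.4 CPM in GFP cells, 65.7, 57.3 and 61 CPM in Ubx-WT cells and 66.7, 63.1 and 67.2 CPM in Ubx-N51A cells. alpha-PheRS differed from GFP on the log2 scale by -0.22 (SE 0.053; edgeR adjusted p = 0.0112) for Ubx-WT, and by -0.12 (SE 0.053; edgeR adjusted p = 0.181) for Ubx-N51A. All Ubx libraries lay below all GFP libraries, and the Ubx-WT call was lost without GFP replicate 2. AIMP2 stood at 70.9, 68.6 and 62.2 CPM in GFP cells, 60.9, 55.6 and 58.8 CPM in Ubx-WT cells and 62.6, 61.4 and 60 CPM in Ubx-N51A cells. The log2 fold change of AIMP2 came to -0.20 (SE 0.052; edgeR adjusted p = 0.0184) for Ubx-WT, and to -0.13 (SE 0.053; edgeR adjusted p = 0.147) for Ubx-N51A. Its Ubx-WT call was lost without any one of 4 libraries, GFP replicates 1 and 2 and Ubx-WT replicates 2 and 3. beta-PheRS gave -0.16 and -0.17, AIMP1 -0.14 and 0.02, and AIMP3 -0.09 and -0.02, on the log2 scale in the same order, and none of these passed.

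Partners of charging in mitochondria were a list of 12 genes, of which 10 were tested. They include Slimp, a relative of the serine enzyme, the amidotransferase subunits GatA and GatB, which make glutaminyl-tRNA in mitochondria, and the elongation factor genes mEFTu1 and mEFTs. edgeR called 0 of 10 with Ubx-WT and 0 of 10 with Ubx-N51A, 3 had an unadjusted p under 0.05 in each, and DESeq2 called 1 in each. Over all 9207 genes tested edgeR called 16.6% with Ubx-WT and 8.09% with Ubx-N51A. An unadjusted p under 0.05 was found for 2822 and 2157 of all genes, so counts this small say nothing about the list. The median log2 fold changes were -0.03 and 0.01. GatA gave 0.06 and 0.12, Slimp 0.01 and 0.11, and mEFTu1 -0.18 and -0.20, on the log2 scale.

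The cytosolic elongation factors, which bring charged tRNA to the ribosome and move it on, had 5 of 7 listed genes tested. With Ubx-WT 1 of 5 fell, eEF1delta, against 7.83% of all genes called lower. With Ubx-N51A edgeR called 0 of 5, against 8.09% of all 9207 genes tested. By unadjusted p under 0.05 there were 3 of 5, against 2157 of all genes, and DESeq2 called 1. eEF1delta, a subunit of the exchange factor, stood at 348, 353 and 344 CPM in GFP cells, 301, 308 and 303 CPM in Ubx-WT cells and 340, 320 and 313 CPM in Ubx-N51A cells. For eEF1delta the Ubx-WT log2 fold change was -0.20 (SE 0.040; edgeR adjusted p = 0.00464), and the Ubx-N51A value was -0.10 (SE 0.040; edgeR adjusted p = 0.14). Its Ubx-WT libraries lay below GFP and the fall held without any single library. eEF1beta, eEF1gamma and eEF2 gave -0.20, -0.18 and -0.18 with Ubx-WT, just short of the threshold (edgeR adjusted p = 0.0501, 0.0711 and 0.0698), and DESeq2 called 4 of the 5 genes lower. The fifth tested gene, eEF1alpha2, lay the other way with Ubx-WT, at 0.48 (SE 0.190; edgeR adjusted p = 0.106) and a mean of 1.16 CPM in GFP cells, and did not pass.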

How the data were processed

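Poly(A) RNA of 9 S2R+ libraries was sequenced as 75 bp single-end reads from directional libraries, per the labels' protocols. The authors deposited raw read counts per FlyBase gene. FastQC, Trimmomatic 0.36, STAR, HTSeq, DESeq and DESeq2 with dm6 and BDGP6 are named in the submitters' processing notes. Neither how strand was handled nor which annotation release served is given in the sources used here, so reads of overlapping genes may be dropped or mixed. Summary rows, 7.87% to 10.4% of the deposited counts, were left out.

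Tests used edgeR 4.0.16 under R 4.3.3. filterByExpr kept 9207 genes, TMM factors were 0.971 to 1.026, and 1 quasi-likelihood fit held all 9 libraries with the group as its only term. SE is the log2 fold change over the root of F, and intervals use the t distribution of the fit. Replicate pairs differed by more than sampling noise (chi-square per degree of freedom at least 6.28). DESeq2 1.42.0 was an alternative. Exon lengths are merged exons of Ensembl's BDGP6.54. The code was tested on simulated data.

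The synthetase genes and the 7 other gene lists were chosen with earlier results of these data known. The text names all members, those called with values in every library, and called genes of the other lists. Of the list entries, 12 had no matching row. A called gene of the tRNA processing list is not reported here. Intervals cover the spread between libraries only.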

Additional observations from a re-analysis of the deposited data

How the results depend on the processing

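The 7 other settings were DESeq2 size factors, no filter on low counts, the DESeq2 test, a fit of only the 6 libraries compared, a replicate block, a fit without genes of the mitochondrial genome, and an offset for exon length. Against GFP, no listed log2 fold change of a cytosolic gene, AsnRS-m or CysRS-m changed sign under these or without any single library. With Ubx-WT the synthetase genes called numbered 12, and 11 to 15 under the other settings. With Ubx-N51A they numbered 11, and 9 to 14. Between the Ubx proteins 0 were called under every setting run. Without the mitochondrial genome 13 genes were called with Ubx-WT and 13 with Ubx-N51A.

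Leaving out single libraries mattered most with Ubx-N51A. The count of called synthetase genes, all of them cytosolic falls, ran from 6 to 11, with 6 without GFP replicate 1 and 6 without GFP replicate 2, and the median log2 fold change from -0.133 to -0.082. AlaRS, AsnRS, MetRS and ThrRS kept that call without each library in turn. With Ubx-WT the count ran from 9 to 15, and 9 of the 11 cytosolic falls held without each library. Over all genes the calls ran from 990 to 1741 with Ubx-WT (1524 with all libraries), with 990 without Ubx-WT replicate 3 and 1015 without GFP replicate 2. With Ubx-N51A they ran from 362 to 823 (745 with all libraries), with 440, 362 and 490 without GFP replicates 1, 2 and 3 and 398 without Ubx-N51A replicate 2. Between the Ubx proteins they ran from 302, without Ubx-WT replicate 3, to 474 (473 with all libraries), where the synthetase median ran from -0.020 to 0.014. Leaving out a library leaves 8 in the fit, and the cause was not tested further.

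Replicate numbers, taken from the sample titles, did not pair the libraries. Deviations of same-numbered libraries correlated at -0.108 to 0.177. The deposited file names number the replicates otherwise, so that GFP replicate 2 shares no file number with replicate 2 of either Ubx group, and the block sets these side by side by title only. With the replicate block 11 synthetase genes were called with Ubx-WT, 9 with Ubx-N51A and 0 between the Ubx proteins. Over all genes the block called 1369 with Ubx-WT. ValRS with Ubx-WT (edgeR adjusted p = 0.059) and, with Ubx-N51A, AspRS (0.0773) and LysRS (0.0604) were then no longer called. Genes that missed the threshold are not shown to be unchanged.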

Other observations

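Genes that make and mature tRNA were measured beside the enzymes that charge it. Of 18 tested genes for tRNA processing, modification and export, 4 fell with Ubx-WT and none rose, against 7.83% of all genes called lower. Among them were La, an RNA-binding protein that protects new RNA polymerase III transcripts, Elp3, the catalytic subunit of a complex that modifies tRNA, and Tgt, which inserts queuosine. La stood at 322, 317 and 321 CPM in GFP cells, 270, 245 and 262 CPM in Ubx-WT cells and 269, 268 and 281 CPM in Ubx-N51A cells. Against GFP, the log2 fold change of La was -0.31 (SE 0.042; edgeR adjusted p = 0.000301) for Ubx-WT and -0.23 (SE 0.042; edgeR adjusted p = 0.00563) for Ubx-N51A. The Ubx libraries lay below GFP in each comparison, and both calls held without any single library. With Ubx-N51A 2 of 18 genes were called, both lower, La among them, against 4.71% of all genes called lower. Elp3 gave -0.19 and Tgt -0.19 with Ubx-WT, calls that ended without 3 and 4 single libraries. For this list the medians were -0.08 with Ubx-WT and 0.00 with Ubx-N51A.

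Of 13 tested genes of RNA polymerase III, which transcribes tRNA genes, and its factors, 2 fell with Ubx-WT and 1 with Ubx-N51A, against 7.83% and 4.71% of all genes called lower, so counts this small say nothing about the list. Bdp1, a subunit of the initiation factor TFIIIB, changed by -0.18 (SE 0.039; edgeR adjusted p = 0.00591) and -0.14 (SE 0.039; edgeR adjusted p = 0.0466) in that order. The Bdp1 call with Ubx-N51A ended without any one of 8 single libraries. Trf, the factor that replaces TBP at these genes in flies, changed by -0.21 with Ubx-WT, a call that ended without any one of 4 libraries. Myc gave -0.07 and -0.02 and did not pass. In the amino acid response list 1 of 11 genes fell in each comparison, near the same shares of all genes. It was eIF2alpha, the initiation factor that the kinases of this response phosphorylate. eIF2alpha stood at 410, 383 and 367 CPM in GFP cells, 348, 301 and 325 CPM in Ubx-WT cells and 324, 330 and 345 CPM in Ubx-N51A cells, with log2 fold changes of -0.25 (SE 0.056; edgeR adjusted p = 0.00838) and -0.21 (SE 0.057; edgeR adjusted p = 0.035). The latter call ended without any one of 5 single libraries. The kinase gene Gcn2 (-0.03 and -0.11) and crc, the fly ATF4 (-0.07 and -0.01), did not pass.

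Of the 11 genes listed as amino acid transporters, 3 were called with Ubx-WT, 2 of them lower, against 16.6% of all genes called and 7.83% called lower. mnd, an amino acid transporter, changed by -0.18, a call that ended without any one of 4 libraries, GFP replicates 2 and 3 and Ubx-WT replicates 1 and 3. kcc changed by -0.17, although kcc encodes a potassium-chloride cotransporter and was listed in error. The third, acs, had 1 to 6 reads per GFP library, 10 to 18 per Ubx-WT library and 4 to 8 per Ubx-N51A library. It passed the filter on low counts only through the Ubx-WT group, so its call is not read as a difference. With Ubx-N51A edgeR called 0 of 11, 6 had an unadjusted p under 0.05, kcc among them, and DESeq2 called 1. Over all 9207 genes tested edgeR called 8.09% with Ubx-N51A, and 2157 had an unadjusted p under 0.05. DESeq2 called 379 of all genes higher and 572 lower.

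GluRS-m and TyrRS are neighbours on the minus strand of 3L, with 171 bases between them, and the annotation places the start of GluRS-m (16415292 to 16417177) just beyond the end of TyrRS (16417349 to 16419302). The pair was picked after the values were seen. TyrRS was called lower in both Ubx groups, and GluRS-m gave 0.10 and 0.06 on the log2 scale and was not called. A difference between the genes was not tested.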
